A study of Arabidopsis thaliana with 18 samples.

Results

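Cultured Arabidopsis thaliana cells that carried an estrogen-inducible VND6 or SND1 transgene were compared with wild-type (wt) cells at 0 h, before induction. The members are the 9 arrays of that time point among the 18 of the study, chosen by their titles: 3 arrays of VND6 cells and 3 of SND1 cells, together 6 arrays of transgenic lines, against 3 of wt cells. Both lines carried their transgene, which is taken as uninduced from the 0 h in the titles. The other 9 arrays are of the same 3 kinds of cell 12 h after 2 µM estrogen, which wt cells also received. The sample records list 2 µM estrogen for the 0 h arrays as well. The RNA was hybridised to Affymetrix ATH1 genome arrays, on which a probe set is a group of short probes for 1 transcript. The labels do not say whether a line was 1 clone, how long it had been kept apart from the wt culture, and nothing there states that the 3 arrays of a group stem from 3 separate cultures. The p-values then cover no more than the spread between arrays, and that spread may be technical. Line and culture history cannot be told apart here, since each kind of cell is 1 line.

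VND6 and SND1 are plant transcription factors of the NAC family. VND6 is known for switching cells into water-conducting vessel elements, which build a patterned secondary wall and then die, and SND1 for switching on the thick secondary walls of fibres. Cultured cells, for their part, go through a growth cycle in which division and DNA replication are active while sugar is plentiful, and starch breakdown, sugar uptake and autophagy genes rise once it runs out. The transcripts of the VND6 and SND1 transgenes themselves were not analysed here.

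The replicates of a group were not alike. Spearman's rho over the 15715 tested probe sets was 0.990 between wt replicates 2 and 3, but 0.872 between wt replicate 1 and either of them. Every transgenic array was closer to wt replicate 1 than its own group was, at 0.890 to 0.936. The closest were SND1 replicate 1 (0.936) and VND6 replicate 1 (0.921). Likewise wt replicates 2 and 3 stood closer to every transgenic array (0.882 to 0.953) than to wt replicate 1. Replicates 2 and 3 of the lines were likewise close, at 0.984 in VND6 cells and 0.989 in SND1 cells. On the first principal component, with 35.7% of the variance, wt replicates 1, 2 and 3 lay at -54.8, 74.6 and 75.4. The VND6 arrays lay at -40.9, -38 and -26.3 there, and the SND1 arrays at -20.9, 12.1 and 18.8. The labels name 2 labelling kits without saying which array had which, and whether a kit sets replicate 1 apart was not tested. Differences are therefore also given for replicate 1 and for the mean of replicates 2 and 3 for most of the genes described.

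A gene is called when limma's adjusted p is under 0.05. Fold changes are log2 differences of signal plus a pseudocount of 4.32, the line minus wt, which understates changes of dim probe sets. With both lines pooled against wt, 1131 probe sets were called, which is 7.2% of those tested, 798 of them higher (5.08%) and 333 lower (2.12%). Taken alone, VND6 cells differed from wt in 1338 probe sets (8.51%), 754 higher (4.8%) and 584 lower (3.72%). SND1 cells differed in 368 (2.34%), 295 higher (1.88%) and 73 lower (0.465%). With the replicate number as a block, the SND1 count was 583 and the shared count below 417. In all, 267 probe sets (1.7%) were called in both lines in the same direction, 200 higher (1.27%) and 67 lower (0.426%), and 0 were called in opposite directions. The same 3 wt arrays served both line comparisons, so these calls are not independent of each other. The 267 are 20% of the VND6 calls and 72.6% of the SND1 calls.

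Of these 267, 243 (1.55%) held in the replicate check: each line differed from wt in the same direction by at least 0.5 on the log2 scale in replicate 1 and again in the mean of replicates 2 and 3. The check uses the arrays that made the calls and is a description of them. Among the 243, 185 were higher in both lines (1.18%) and 58 lower (0.369%), and 105 and 28 of them had a gene name. Their pooled differences ran from 0.60 to 5.24 among the higher and from 0.76 to 3.47 in size among the lower. The higher set had a median of 1.50 in replicate 1 and 1.45 in replicates 2 and 3, and the lower set of -1.29 and -1.46. For 239 of the 243, all 6 transgenic arrays lay on 1 side of all 3 wt arrays (1.52%), with 181 of them higher (1.15%) and 58 lower (0.369%). That arrangement was found in 1696 of all tested probe sets (10.8%), 1146 higher (7.29%) and 550 lower (3.5%). When each of the 9 arrays was left out in turn, 226 of the 243 kept the pooled call throughout and 62 kept the call in both lines. With replicates 2 and 3 averaged and counted as 1 array, limma called 0 probe sets in either line or in both pooled (1526 at an unadjusted p under 0.05 in the pooled comparison). There 240 of the 243 had an unadjusted p under 0.05 in both lines. The 243 were chosen by their differences on these same arrays, so that count is no further support for them.

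**Figure D1:**
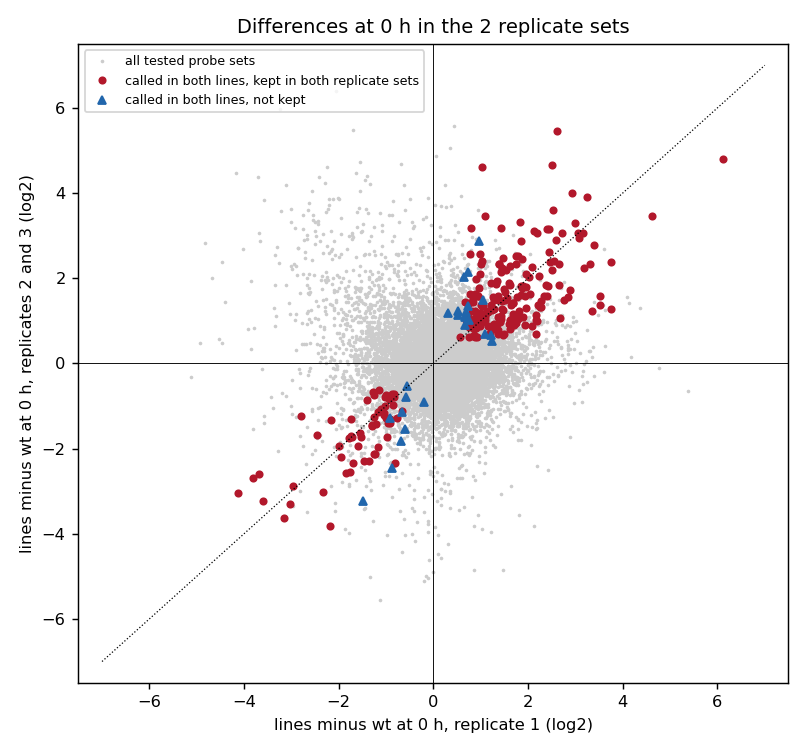
Each point is 1 tested probe set, with the pooled difference of the VND6 and SND1 lines from wt at 0 h in replicate 1 on the x axis and in the mean of replicates 2 and 3 on the y axis, both on the log2 scale. The 243 probe sets that held in the check (red) lie in the lower left and upper right. The 24 that were called in both lines but did not hold (blue triangles) fell short in at least 1 line, which the pooled values plotted here do not show.

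Several genes of DNA replication and cell division were higher in both uninduced lines. POLA3, the DNA primase subunit that makes the first stretch of each new strand, had a signal of 824, 696 and 714 in VND6 cells and of 887, 964 and 940 in SND1 cells, against 274, 295 and 331 in wt cells (replicates 1, 2 and 3). All 6 transgenic arrays were well above the brightest wt array. The pooled difference was 1.46 on the log2 scale (SE 0.13, limma adjusted p = 4.82e-05), with 1.63 for replicate 1 and 1.38 for replicates 2 and 3. PRL (PROLIFERA, also MCM7), a subunit of the helicase that opens DNA for replication, had 352, 161 and 150 in VND6 cells and 316, 235 and 235 in SND1 cells, against 94.8, 80.2 and 48.3 in wt cells. It too was higher in every transgenic array than in any wt array, by 1.62 (SE 0.26, limma adjusted p = 0.00194), with 1.77 in replicate 1 and 1.55 in replicates 2 and 3. ICU2, the catalytic subunit of DNA polymerase alpha, was higher by 1.31 (limma adjusted p = 0.0124) in the pooled comparison and in SND1 cells alone (1.69), but was not called in VND6 cells alone (0.92, limma adjusted p = 0.0969). Its difference reached 2.37 in replicate 1 but 0.77 in replicates 2 and 3.

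Of the 5 tested genes of the DNA replication list, 3 were higher and 0 lower in the pooled comparison, with a median of 1.31. Over all tested probe sets the median was 0.071, at 0.184 in replicate 1 and 0.0149 in replicates 2 and 3, and 5.08% were higher. The list's median stood at 1.63 for replicate 1 and at 0.77 for replicates 2 and 3. PSF2 (0.30) and POLD3 (0.21), the members not called, changed sign between the replicate sets. They stood at 1.25 and 1.20 in replicate 1 and at -0.18 and -0.28 in replicates 2 and 3. The 4 genes of the mitotic list gave 2 higher and 0 lower, both of them Aurora kinases, which steer chromosomes in mitosis. AUR2 had 34, 21.9 and 45.6 in VND6 cells and 39.9, 41.8 and 20.6 in SND1 cells, against 3.32, 2.73 and 9.69 in wt cells. The groups did not overlap, but the signals are low, and the wt values lie near the level of the pseudocount. AUR2 was higher by 2.02 (SE 0.39, limma adjusted p = 0.00592), a call made in both lines alone but lost there without any 1 of VND6 replicate 3, SND1 replicate 1 or 2 and wt replicate 2, and AUR3 by 1.05 (limma adjusted p = 0.0257). The AUR3 call was lost without SND1 replicate 3, wt replicate 2 or wt replicate 3 (limma adjusted p up to 0.0992), and neither line alone was called. It stood at 1.31 in replicate 1 and 0.92 in replicates 2 and 3.

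A group of 9 tested genes of the spindle, the kinetochore and cytokinesis, the Aurora kinases among them, was put together by symbol after the values were seen. In it 7 were higher and 0 lower in the pooled comparison, with a median of 1.19, against 5.08% higher over all tested probe sets. Of these genes 3 held in the replicate check. BUB3.2, of the family of spindle checkpoint proteins, had 457, 274 and 227 in VND6 cells and 361, 371 and 396 in SND1 cells, against 143, 123 and 131 in wt cells. Every transgenic array exceeded every wt array, and the difference of 1.33 (SE 0.20, limma adjusted p = 0.00109) kept its call in both lines without any 1 of the 9 arrays. FU (FUSED), a kinase needed to lay down the new wall between daughter cells, was higher by 1.25 (limma adjusted p = 0.00404), at 1.93 in replicate 1 and 0.90 in replicates 2 and 3. Haspin, a kinase that marks histone H3 in mitosis, was higher by 1.19, WYR, the plant INCENP partner of Aurora, by 1.20, and BUB3.1 by 0.84. In replicate 1 they stood at 1.55, 2.06 and 1.27. In replicates 2 and 3 Haspin stood at 1, WYR at 0.77 and BUB3.1 at 0.62. Haspin and WYR were not called in VND6 cells alone (limma adjusted p = 0.059 and 0.195), and BUB3.1 in neither line alone. The Haspin call was lost without wt replicate 2 (limma adjusted p = 0.0641), that of WYR without wt replicate 3 (limma adjusted p = 0.112), and that of BUB3.1 without any 1 array other than VND6 replicate 3 (limma adjusted p up to 0.102). Histones, which are made in S phase, gave no call among 7 tested genes, with a median of 0.28, 0.05 in replicate 1 and 0.47 in replicates 2 and 3. The summed signal of the 7 overlapped between the groups, at 13908 to 20796 in the lines and 15401 to 22354 in wt cells. In these bulk samples more dividing cells and more RNA per dividing cell cannot be told apart.

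**Figure D2:**
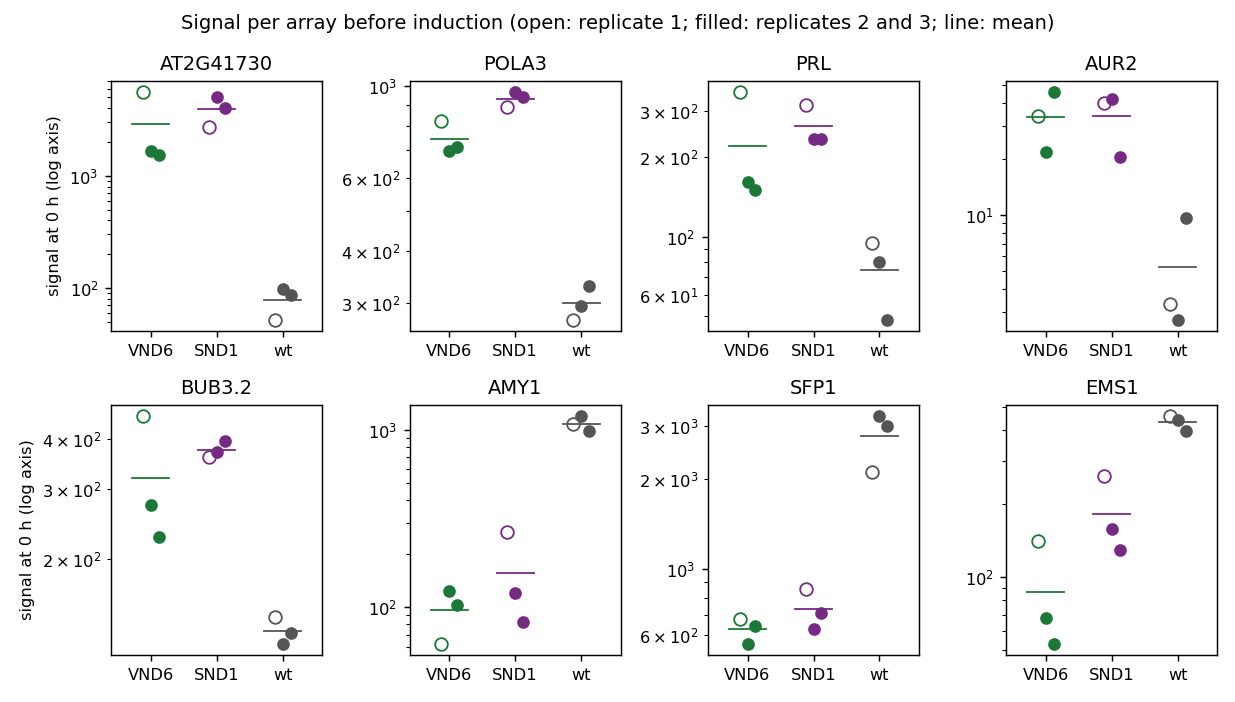
Signal at 0 h on a log axis for 8 genes, 1 panel each, in VND6, SND1 and wt cells. Open points are replicate 1, filled points replicates 2 and 3, and lines the mean of the 3 arrays. In every panel all 6 transgenic arrays lie on 1 side of the 3 wt arrays.

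Some tubulin genes and some genes of proteins that bind microtubules were also among the shared differences. TUB6, a beta-tubulin, had 5214, 4679 and 4865 in VND6 cells and 4325, 4933 and 3695 in SND1 cells, against 2827, 2587 and 2391 in wt cells. The groups did not overlap, and the difference was 0.82 (SE 0.16, limma adjusted p = 0.0057), 0.75 in replicate 1 and 0.86 in replicates 2 and 3. In SND1 cells alone TUB6 sat at the threshold (0.72, limma adjusted p = 0.0488). TUB1 was higher by 1.20 (limma adjusted p = 0.00714), though without wt replicate 2 it missed the threshold (limma adjusted p = 0.0542). Its difference was 0.75 in replicate 1 against 1.42 in replicates 2 and 3. TUB9 was higher by 1.02 in the pooled comparison (limma adjusted p = 0.00588), though it stood at 0.41 in replicate 1 against 1.33 in replicates 2 and 3. It was not called in SND1 cells alone (limma adjusted p = 0.132). Of 7 tested tubulins, a group put together after the values were seen, 3 were higher and 0 lower in the pooled comparison. Over all tested probe sets 5.08% were higher there. In the replicate check 2 of the tubulins held. Tubulins are often used as constant references. The list of reference genes, which shares all 7, gave 4 higher and 0 lower among 11 tested, the fourth being GAPC2, a glycolytic enzyme, at 0.59 (limma adjusted p = 0.0188), whose call needed wt replicates 2 and 3 (limma adjusted p up to 0.0991 without either). GAPC2 was not called in SND1 cells alone (limma adjusted p = 0.0945).

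IQD proteins bind calmodulin and many of them sit on microtubules. IQD30 had 140, 112 and 108 in VND6 cells and 87.1, 82.5 and 90.8 in SND1 cells, against 27.1, 32.7 and 19.4 in wt cells, a difference of 1.81 (SE 0.26, limma adjusted p = 0.000902). VND6 arrays were the highest, SND1 arrays came next, and no array of either line reached down to wt. Of the 8 tested IQD genes, grouped after their values were seen, 4 were higher and 0 lower in the pooled comparison, against 5.08% higher over all tested probe sets. Their median was 1.21, at 0.48 in replicate 1 and 1.37 in replicates 2 and 3. Only IQD30 was called in both lines. IQD31 and IQD28 were not called in VND6 cells alone (limma adjusted p = 0.0586 and 0.0593), and IQD26 in neither line alone. IQD31 (0.96) lost its call without wt replicate 2 or wt replicate 3 (limma adjusted p up to 0.0547). IQD28 (1.71) kept its call without any 1 of the 9 arrays, with 2.95 in replicate 1 and 1.09 in replicates 2 and 3. IQD26 (2.02) differed by 0.30 in replicate 1 and 2.89 in replicates 2 and 3, and its call was lost without VND6 replicate 1 or 3, SND1 replicate 2 or 3, or wt replicate 2 or 3 (limma adjusted p up to 0.213), while without wt replicate 1 its value was 3.04. AT3G23090 (WDL3), of the WAVE-DAMPENED-like family of microtubule-associated proteins, had 72.3, 64.9 and 72.6 in VND6 cells and 80, 75.8 and 84.2 in SND1 cells, against 18.5, 4.34 and 2.91 in wt cells. The 6 transgenic arrays lay within a narrow band far above wt, and the difference of 2.81 (SE 0.41, limma adjusted p = 0.000955) came to 1.82 in replicate 1 and to 3.31 in replicates 2 and 3.

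NRPE7 and GTR1 were higher in both lines. NRPE7, a subunit of the plant-specific RNA polymerase V that guides DNA methylation, had 343, 269 and 273 in VND6 cells and 301, 217 and 183 in SND1 cells, against 89.3, 85.4 and 111 in wt cells. The lowest transgenic array, SND1 replicate 3, was still above the highest wt array, wt replicate 3, and the difference was 1.41 (SE 0.18, limma adjusted p = 0.000415), at 1.80 in replicate 1 and 1.22 in replicates 2 and 3. On the list of silencing and chromatin genes 2 of 10 were higher and 0 lower, where 5.08% of all tested probe sets were higher. The other was NRPB9A, a subunit of RNA polymerase II, at 0.79. Its call was lost without VND6 replicate 2, SND1 replicate 2 or 3, or wt replicate 2 or 3 (limma adjusted p up to 0.17). NRPB9A was not called in SND1 cells alone (limma adjusted p = 0.218) and stood at 0.31 in replicate 1 against 1.02 in replicates 2 and 3. GTR1, a transporter of glucosinolates, had 1410, 1221 and 1407 in VND6 cells and 1519, 1587 and 1449 in SND1 cells, against 632, 763 and 818 in wt cells. It was higher by 0.96 (SE 0.15, limma adjusted p = 0.00194) with no overlap, at 1.21 in replicate 1 and 0.83 in replicates 2 and 3. The list of nitrogen and sulfur genes to which it belongs gave 2 higher and 0 lower of 8, the other being AT1G59740 (NPF4.3) at 1.20, which lost its call without wt replicate 2 or wt replicate 3 (limma adjusted p up to 0.06). NPF4.3 was not called in SND1 cells alone (limma adjusted p = 0.158).

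GH3.17, an enzyme that joins auxin to an amino acid and so removes it from the active pool, had 4068, 2432 and 2471 in VND6 cells and 2820, 2745 and 2668 in SND1 cells, against 1986, 415 and 445 in wt cells. Wt replicate 1 stood far above the other wt arrays and nearer to the lines, and the difference came to 0.77 in replicate 1 and to 2.57 in replicates 2 and 3, or 1.97 in all (SE 0.39, limma adjusted p = 0.00646). The call was lost without wt replicate 2 or wt replicate 3 (limma adjusted p up to 0.0529). GH3.17 was the only 1 of 14 tested auxin genes called in the pooled comparison, where 7.2% of all tested probe sets were called. NDB4, a mitochondrial NAD(P)H dehydrogenase of the alternative respiratory chain, was higher by 2.10 (limma adjusted p = 0.0115), at 3.76 in replicate 1 and 1.27 in replicates 2 and 3. Its arrays overlapped between the groups, with 38.8 in VND6 replicate 3 and 40.2 in wt replicate 2. It was 1 of 5 tested genes of alternative respiration, and the other 4 were not called.

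A few further named genes were picked out after their values were seen. AGL21 and VPS2.2 kept their calls in both lines without any 1 of the 9 arrays. AGL21, a MADS-domain transcription factor, had 438, 539 and 560 in VND6 cells and 670, 848 and 695 in SND1 cells, against 146, 203 and 164 in wt cells, with SND1 cells highest. It was higher by 1.83 (SE 0.27, limma adjusted p = 0.000989), almost the same in replicate 1 (1.86) as in replicates 2 and 3 (1.81). VPS2.2, related to the ESCRT-III proteins that sort membrane cargo, had 124, 201 and 157 in VND6 cells and 176, 131 and 158 in SND1 cells, against 52.6, 32.6 and 32.9 in wt cells. It was higher by 1.91 (SE 0.23, limma adjusted p = 0.000236), at 1.42 in replicate 1 and 2.15 in replicates 2 and 3. RALFL34, a signalling peptide, was higher by 1.33 (limma adjusted p = 0.00221), SKU5, a cell surface protein of directional root growth, by 0.95, and ATERDJ2B, of protein import into the endoplasmic reticulum, by 0.97. For these 3 the pooled calls were kept without any 1 array and the calls in both lines were not.

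Among probe sets with a gene name, the largest shared differences upward were in genes that the array annotation gives by locus code only. Some probe sets without a gene name differed as much. AT2G41730 had 5548, 1664 and 1527 in VND6 cells and 2712, 5014 and 4009 in SND1 cells, against 51.8, 97.3 and 86.2 in wt cells. Even the dimmest transgenic array, VND6 replicate 3, was far brighter than any wt array. The difference was 5.24 (SE 0.55, limma adjusted p = 9.7e-05), with 6.11 for replicate 1 and 4.80 for replicates 2 and 3. Its probe set is of a kind whose probes can also bind related sequences, so the transcript behind it is less certain. AT3G61340 had 776, 592 and 562 in VND6 cells and 495, 385 and 406 in SND1 cells, against 111, 41 and 59.4 in wt cells, a difference of 2.92 (SE 0.31, limma adjusted p = 9.7e-05). AT5G62550 had 87.4, 110 and 78.1 in VND6 cells and 129, 120 and 122 in SND1 cells, against 7.3, 2.45 and 3.78 in wt cells, a difference of 3.68 (SE 0.32, limma adjusted p = 4.82e-05). In both genes the arrays of the lines stood far from those of wt in all replicates. AT5G51380 had 279, 184 and 162 in VND6 cells and 216, 282 and 137 in SND1 cells, against 35.4, 31.8 and 34.7 in wt cells, a difference of 2.44 (SE 0.25, limma adjusted p = 7.8e-05).

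The remaining locus codes among the 14 largest higher differences of named genes were AT3G58210 (3.94), AT5G52330 (3.19), AT1G49870 (3.10), AT2G21640 (2.98), AT4G24050 (2.94), AT4G23590 (2.90), AT2G38920 (2.66), AT4G02750 (2.55) and AT4G17990 (2.53). All 14 kept the pooled call without any 1 of the 9 arrays, and 9 of them the call in both lines. Many of these transcripts were dim in wt cells: in 46 of the 185 shared higher probe sets, all 3 wt arrays were under the 40th percentile of their array, and in 4 all 6 transgenic arrays were. AT1G49870, for one, read 40.9, 39.3 and 36.2 in VND6 cells and 68.1, 61.3 and 90.1 in SND1 cells, against 2.13, 1.45 and 3.78 in wt cells. For such genes the wt values carry little information beyond being low. AT3G58200 and AT3G58210 were neighbours among the tested named genes and both higher, as were AT4G17990, AT4G18030 and AT4G18060 in a row. Between 1% and 2.14% of the tested named genes of each nuclear chromosome were shared differences.

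Among the transcripts lower in both lines were those of 1 gene of starch breakdown, AMY1, and 1 of sugar transport, SFP1. AMY1, an alpha-amylase that breaks down starch, had 62.4, 123 and 103 in VND6 cells and 266, 121 and 82.6 in SND1 cells, against 1082, 1195 and 979 in wt cells. All transgenic arrays were far under the wt arrays, and AMY1 was lower by a log2 difference of -3.20 (SE 0.40, limma adjusted p = 0.000277), -3.02 in replicate 1 and -3.30 in replicates 2 and 3. SFP1, of the sugar-porter family of transporters, had 678, 562 and 643 in VND6 cells and 854, 627 and 710 in SND1 cells, against 2107, 3234 and 2999 in wt cells. It was lower without overlap, at -2.01 (SE 0.23, limma adjusted p = 0.000184), with -1.46 for replicate 1 and -2.29 for replicates 2 and 3. Both genes kept their calls in both lines without any 1 of the 9 arrays. SWEET2, a vacuolar sugar transporter, was lower in the pooled comparison (-2.11, limma adjusted p = 0.00497) and in VND6 cells (-2.88, limma adjusted p = 0.00197), and was not called in SND1 cells (-1.35, limma adjusted p = 0.154). SND1 replicate 1 read 614, against 747 in wt replicate 1, while SND1 replicates 2 and 3 read 171 and 205, against 662 and 739 in wt cells.

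The list of sugar starvation genes, which also holds SWEET transporters, had 13 tested members, of which 0 were higher and these 3 lower. Its median was -0.63, at -0.11 in replicate 1 and -1.10 in replicates 2 and 3. Autophagy, by which starving cells digest their own contents, gave 0 higher and 3 lower of 11 genes, with a median of -0.41. Over all tested probe sets 5.08% were higher and 2.12% lower in the pooled comparison. ATG8 proteins coat the growing autophagosome. APG8H had 5016, 5696 and 4729 in VND6 cells and 5473, 5834 and 5362 in SND1 cells, against 6894, 7603 and 7878 in wt cells. The groups did not overlap, yet the difference was small (-0.48, SE 0.13, limma adjusted p = 0.0405). ATG8B was lower by a log2 difference of -1.13 (limma adjusted p = 0.0461) and AT5G66930 (ATG101), part of the kinase complex that starts autophagy, of -0.58 (limma adjusted p = 0.0442). None of the 3 was called in SND1 cells alone. The APG8H call was kept only without VND6 replicate 1, VND6 replicate 2 or wt replicate 1 (limma adjusted p otherwise up to 0.161), the ATG8B call only without wt replicate 1 (up to 0.208), and the ATG101 call only without SND1 replicate 1 or wt replicate 1 (up to 0.201). Summed over the 11 genes, the signal was 31504 to 40692 in the lines and 48898 to 50743 in wt cells, so that every transgenic array lay under every wt array.

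**Figure D3:**
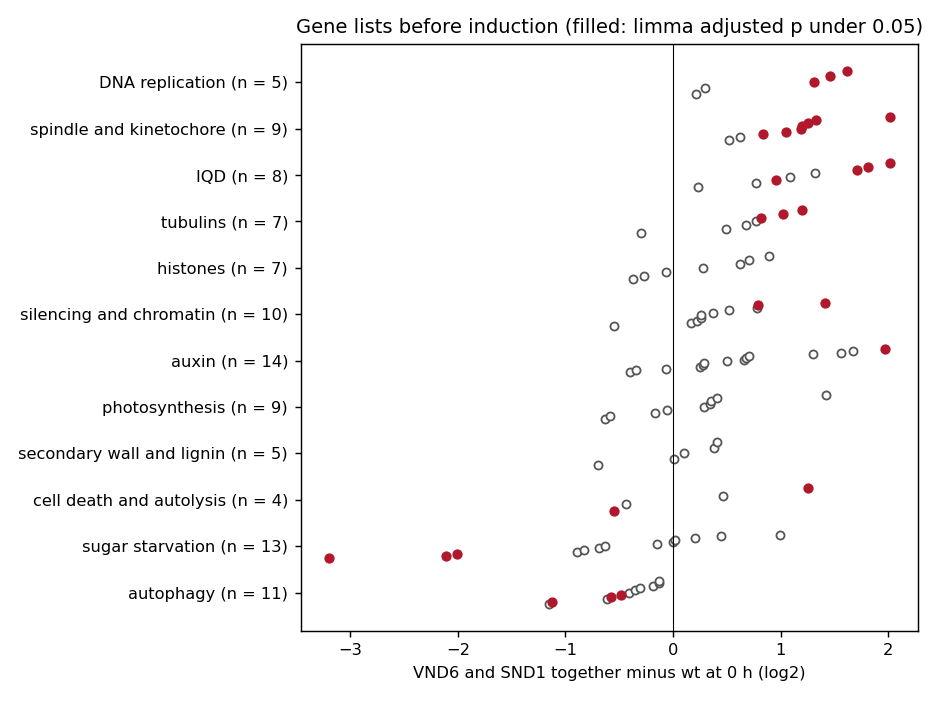
Pooled log2 difference of VND6 and SND1 cells from wt cells at 0 h, 1 point a gene, for 12 gene groups. Filled points were called (limma adjusted p under 0.05). Called genes lie to the right of 0 in the DNA replication, spindle, IQD and tubulin groups and to the left in the sugar starvation and autophagy groups, and none is called among histones, photosynthesis or secondary wall genes. IRX15, IRX15-L and AT5G66390 of the secondary wall group were dim at 0 h.

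EMS1, a receptor kinase known from anther development, had 140, 67.7 and 53.2 in VND6 cells and 259, 158 and 129 in SND1 cells, against 458, 443 and 398 in wt cells. Wt cells were highest, SND1 cells next and VND6 cells lowest, and the pooled difference was -1.83 (SE 0.28, limma adjusted p = 0.00125), with -1.24 for replicate 1 and -2.12 for replicates 2 and 3. Its SND1 call sat at the threshold (limma adjusted p = 0.0467) and the call in both lines was lost without any 1 of VND6 replicate 2, SND1 replicate 2 or 3 and the 3 wt arrays. TET10, a tetraspanin, had 238, 188 and 245 in VND6 cells and 163, 151 and 208 in SND1 cells, against 401, 432 and 541 in wt cells, a difference of -1.20 (SE 0.18, limma adjusted p = 0.00125) that kept both calls without any 1 array. Of the transcripts known by locus code only, AT3G26100 had 797, 591 and 643 in VND6 cells and 1550, 1126 and 1263 in SND1 cells, against 2647, 3842 and 3674 in wt cells. Again the order was wt, SND1 and VND6 from high to low, with a difference of -1.83 (SE 0.20, limma adjusted p = 0.000122). AT1G49740 had 168, 127 and 177 in VND6 cells and 196, 157 and 209 in SND1 cells, against 539, 489 and 552 in wt cells, a difference of -1.60 (SE 0.19, limma adjusted p = 0.000224) that was nearly the same in replicate 1 (-1.55) as in replicates 2 and 3 (-1.63).

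The other 9 of the 14 largest lower differences of named genes were AT5G64190 (-3.47), AT3G46700 (-3.27), AT1G78260 (-2.12), AT1G54020 (-1.96), AT1G25530 (-1.82), AT4G17483 (-1.77), AT1G73750 (-1.71), AT3G47040 (-1.70) and AT5G04830 (-1.60). All 14 kept the pooled call without any 1 of the 9 arrays, and 5 the call in both lines. AT1G25530 stood at -0.81 in replicate 1 and -2.33 in replicates 2 and 3. AT3G47040 was just inside both limits, with an SND1 adjusted p of 0.0499 in limma and an SND1 difference of -0.52 in replicate 1. Among the 58 shared lower probe sets, the change was larger in size in VND6 cells than in SND1 cells for 46, with medians of -1.72 and -1.32, and among the 185 higher for 98, with medians of 1.53 and 1.44.

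The lists of genes of the programmes that VND6 and SND1 are known to switch on were short. Over all tested probe sets 7.2% were called in the pooled comparison, so counts in such lists say little. None of the 5 tested genes of the secondary wall and lignin list was called in limma, and 0 of them in either line alone: GUT2 (IRX10), of the xylan backbone, stood at 0.41 (limma adjusted p = 0.195), HCT, of the lignin pathway, at 0.38, IRX15-L at 0.10, IRX15 at 0.01 and AT5G66390 (PRX72), a peroxidase, at -0.70. Over the arrays at 0 h IRX15 read 2.59 to 6.02, IRX15-L 1.58 to 32.3 and AT5G66390 0.942 to 25.4. The filter used the 12 h arrays too, so genes this dim at 0 h were tested. Near the pseudocount a fall could not be seen, and only a marked rise could have been called. The summed signal of the 5 genes was 370 to 656 in the lines and 301 to 379 in wt cells, with overlap. It came mostly from HCT and GUT2. At 12 h, on other arrays, GUT2 (1.51), IRX15-L (3.45) and IRX15 (4.80) were higher in the pooled lines, with both lines above wt on every array. HCT was not called in the pooled lines at 12 h (0.32), where the lines parted. It had 233, 318 and 329 in VND6 cells and 682, 1091 and 998 in SND1 cells, against 278, 460 and 535 in wt cells. Every SND1 array was above every wt array, and VND6 cells were under wt in each replicate. AT5G66390 at 12 h had 1617, 1613 and 1658 in VND6 cells and 2.07, 2 and 3.2 in SND1 cells, against 8.36, 3.03 and 2.52 in wt cells, so that its pooled difference of 3.61 came from VND6 cells. The list of cell death genes had 4 tested members, 1 of them higher and 1 lower. ALPHA-VPE, a vacuolar protease, had 349, 326 and 311 in VND6 cells and 281, 180 and 254 in SND1 cells, against 279, 71.7 and 72.8 in wt cells, so that replicate 1 showed almost no difference (0.17) and replicates 2 and 3 a large one (1.79). Its pooled call (1.25, limma adjusted p = 0.0415) was kept only without wt replicate 1, where the value was 1.88, and otherwise reached a limma adjusted p of 0.219. SCPL49, a serine carboxypeptidase-like protein, was lower by a log2 difference of -0.55 (limma adjusted p = 0.0226). It missed the threshold without SND1 replicate 2, wt replicate 2 or wt replicate 3 (limma adjusted p up to 0.127).

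On the detoxification list 3 of 20 genes were lower and 0 higher: GSTU16, a glutathione transferase (-1.97), ALDH7B4, an aldehyde dehydrogenase (-0.77), and AER, an alkenal reductase (-0.65). All 3 were called in VND6 cells and none in SND1 cells, and each lost its pooled call without several single arrays, among them SND1 replicate 2 or 3 and wt replicate 2 or 3 (limma adjusted p up to 0.0777, 0.156 and 0.121). GSTU16 also lost it without VND6 replicate 3 or wt replicate 1, ALDH7B4 without VND6 replicate 2 or 3, and AER without VND6 replicate 2 or 3 or wt replicate 1. Single calls came from AT2G46140 (LEA27) at 0.92 among 6 abscisic acid and dehydration genes and EXPA9, an expansin, at 1.45 among 19 primary wall genes. REM22, a B3-domain transcription factor, was called at 2.25 among 4 embryo and stem cell regulators. GI (GIGANTEA) of the circadian clock was called at 0.99 on the clock and light list, with 3 tested. Over all tested probe sets 5.08% were higher and 2.12% lower, so single calls say little about their lists. The LEA27 and EXPA9 calls were lost without SND1 replicate 2 or 3 or wt replicate 2 or 3 (limma adjusted p up to 0.108 and 0.148), that of REM22, at 0.91 in replicate 1 and 2.92 in replicates 2 and 3, without wt replicate 2 (0.0756), and that of GI without any 1 array other than VND6 replicate 1 (up to 0.107). In the pooled comparison no gene was called on the lists of photosynthesis (9 tested), defence (10), iron and metals (5), flavonoids (3), hypoxia (2) and jasmonate (2). Nor was any of the single tested genes of the ribosome, heat shock, ethylene and phosphate lists. Of the 7 cytokinin genes named on the array, 0 passed the filter on low signals.

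Not every pooled difference was present in all replicates. Of the 1131 pooled calls, 9 had the opposite sign in replicate 1 and 101 more had a replicate 1 difference under 0.25 of that in replicates 2 and 3, against 10 where it was the other way round. AT4G04070 had 193, 145 and 202 in VND6 cells and 422, 500 and 573 in SND1 cells, against 392, 3026 and 3457 in wt cells. The pooled difference of -2.41 (limma adjusted p = 0.0101) was -3.40 in replicates 2 and 3 and -0.45 in replicate 1, where wt stood between the lines. AT5G52620 had 61.9, 62.5 and 56.1 in VND6 cells and 39.5, 38.1 and 44 in SND1 cells, against 35.2, 1.54 and 1.15 in wt cells. It was higher by 2.31 (limma adjusted p = 0.0122), at 0.45 in replicate 1 and 3.24 in replicates 2 and 3. In both genes the wt arrays differed from each other by more than the lines did. AT5G18310 was called in both lines (-0.67) and failed the replicate check, with -0.19 in replicate 1 and -0.90 in replicates 2 and 3. AT1G01770 (-1.43), AT4G01410 (-2.07) and AT4G18070 (0.89) were called in the pooled comparison and stood at -0.10, -0.51 and 0.22 in replicate 1. The calls of all 6 were lost without wt replicate 2 or wt replicate 3 (limma adjusted p up to 0.0816).

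**Figure D4:**
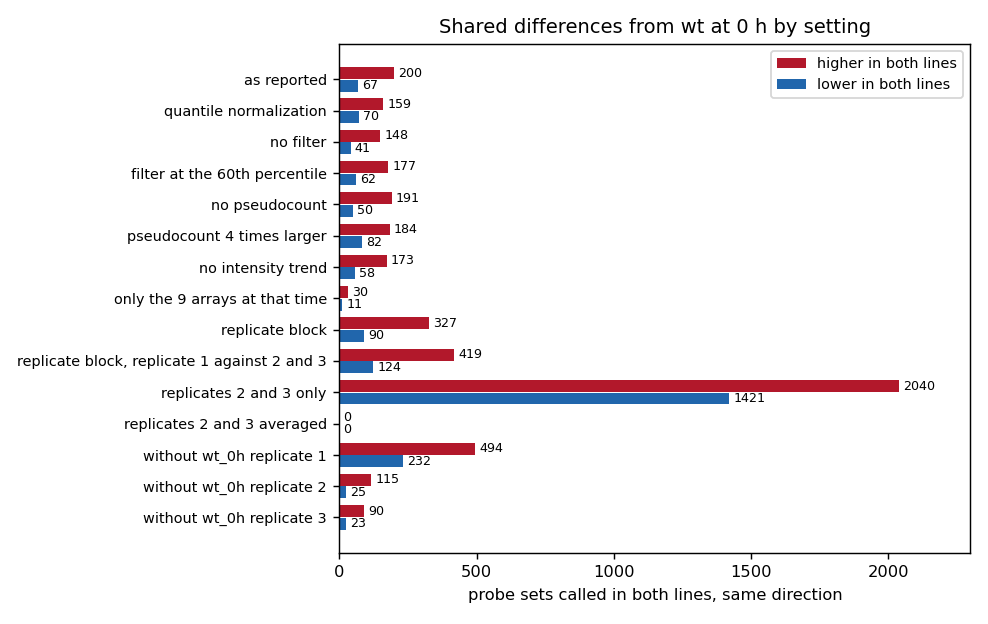
Number of probe sets called in both lines in the same direction at 0 h, higher (red) and lower (blue), as reported and under each other setting. The count runs from 0 with replicates 2 and 3 averaged to 2040 higher and 1421 lower with replicates 2 and 3 only, against 200 higher and 67 lower as reported.

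The number of shared differences depended on single wt arrays. It was 726 without wt replicate 1, 140 without wt replicate 2 and 113 without wt replicate 3, and 83 and 89 without SND1 replicate 2 and 3, against 267 with all arrays. Fitting only the 9 arrays at 0 h left 41, all of which held in the replicate check, and 40 of the 243 kept both calls there while 209 kept the pooled call.

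The lines were also set against each other. VND6 and SND1 cells differed in 2 probe sets at 0 h (0.0127%), 1 higher in VND6 cells (0.00636%) and 1 lower (0.00636%), neither with a gene name in the annotation, and in 1741 at an unadjusted p under 0.05. None of the 243 shared differences was among the 2. Without VND6 replicate 1 the count was 375, and without wt replicate 1, which enters only the estimate of the spread, 137.

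At 12 h the lines were compared with wt on other arrays, after estrogen had been given to all cells. There 4274 probe sets were called (27.2%), 1980 higher (12.6%) and 2294 lower (14.6%). Of the 185 probe sets that had been higher in both uninduced lines, 42 (22.7%) were again higher and 22 (11.9%) were lower. Their median log2 difference was -0.01 at 12 h and 1.48 at 0 h. Of the 58 lower ones, 20 (34.5%) were again lower and 13 (22.4%) were higher, with medians of -0.37 at 12 h and -1.54 at 0 h, against -0.17 at 12 h over all tested probe sets. The lines were induced by then, and what induction added to a difference was not tested.

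DNA replication genes no longer stood higher. POLA3 had 1201, 1318 and 1305 in VND6 cells and 892, 1131 and 1038 in SND1 cells at 12 h, against 1656, 1545 and 1729 in wt cells. All 3 wt arrays were then above all 6 of the lines, and the difference was -0.53 (limma adjusted p = 0.00803), opposite in sign to that at 0 h. PRL stood at -0.58 (limma adjusted p = 0.108) and ICU2 at -0.60 (limma adjusted p = 0.132), neither called. GTR1 was lower at 12 h (-1.07, limma adjusted p = 0.000111), also opposite to 0 h. AMY1, so different at 0 h, was not called at 12 h (0.64, limma adjusted p = 0.248), where it had 10.8, 33.6 and 16.1 in VND6 cells and 51.9, 101 and 104 in SND1 cells, against 34.3, 31.4 and 12.3 in wt cells. Nor was AT2G41730, at 5.24 the largest higher difference at 0 h (0.28 at 12 h, limma adjusted p = 0.748). It then had 18011, 2024 and 2390 in VND6 cells and 2737, 1645 and 1932 in SND1 cells. Wt cells read 2619, 2220 and 2666, far above their 0 h values.

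Other differences grew or stayed. IQD30 reached 784, 1940 and 1965 in VND6 cells and 630, 759 and 668 in SND1 cells at 12 h, against 35.5, 39 and 28.4 in wt cells. Its difference of 4.70 (limma adjusted p = 5.84e-09) compares with 1.81 at 0 h. TUB6 was higher by 2.36 (limma adjusted p = 5.02e-08), and GH9B7, an endoglucanase that acts on cell wall glucans, by 2.26 (limma adjusted p = 2.79e-05). At 0 h GH9B7 had 992, 900 and 1116 in VND6 cells and 739, 864 and 1004 in SND1 cells, against 441, 285 and 357 in wt cells, a difference of 1.37 (limma adjusted p = 0.00784) whose call was lost without wt replicate 2 (limma adjusted p = 0.0519). AT2G38920 was higher at 12 h by 2.76 and AGL21 by 2.09. SFP1 stayed lower (-2.03, limma adjusted p = 1.3e-05), with 31.4, 19.5 and 14.3 in VND6 cells and 80.1, 44.8 and 68.4 in SND1 cells, against 140, 181 and 170 in wt cells. AT3G46700 (-1.78) and EMS1 (-1.58) were likewise lower at both times, with every array of either line under every wt array at 12 h. AT3G47040 (-1.49) was lower in the pooled comparison at 12 h, with 47.8, 34.9 and 21.9 in VND6 cells and 210, 205 and 185 in SND1 cells, against 165, 283 and 302 in wt cells. There VND6 arrays lay far under wt and SND1 arrays overlapped with it.

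**Figure D5:**
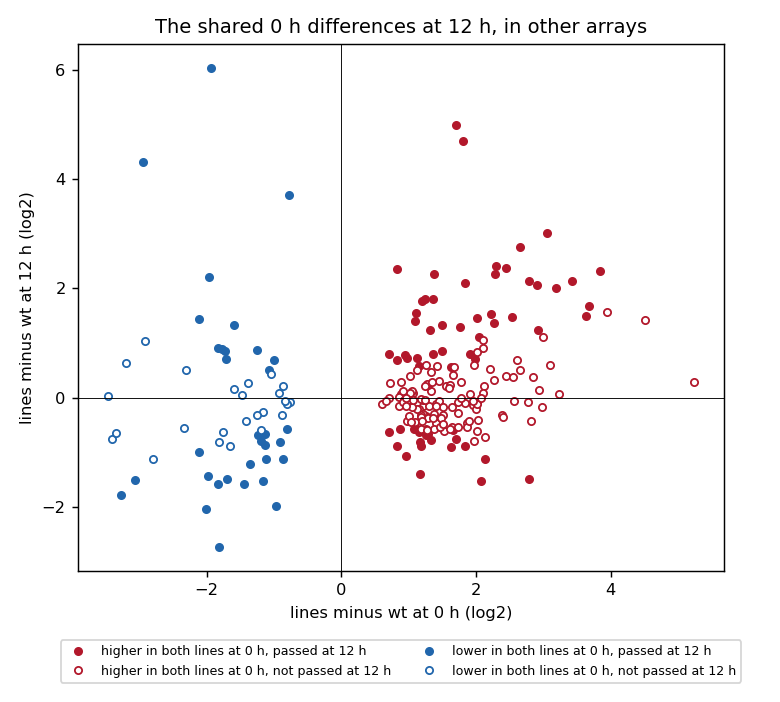
The 243 shared differences, with the pooled log2 difference of the lines from wt at 0 h on the x axis and at 12 h, on other arrays, on the y axis. Filled points passed at 12 h. The higher set (red) has a median of -0.01 at 12 h and the lower set (blue) of -0.37, and points lie on both sides of 0 in either set.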

How the data were processed

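The authors deposited intensity values on a linear scale. GCOS, named in the submitters' processing notes, produced 1 such signal for every probe set on every array, with settings not given in the sources used here. Their trimmed mean (2%) was close to 500.05 on all 18 arrays. Such scaling assumes that most transcripts do not change. Values were used as log2(signal + 4.32), with the pseudocount of 4.32 taken from the table's own 10th percentile. The 64 control probe sets were dropped, and tests were limited to the 15715 of 22810 that were at or above their array's 40th percentile on 3 or more arrays. Using limma 3.58.1 (R 4.3.3), 1 model with a mean for each group was fitted to the 18 arrays (intensity trend, Benjamini-Hochberg, 2-sided). Precision is limited by having 3 arrays a group. The fit was tested on simulated data with known changes, in which arrays of a group varied independently. Replicates 2 and 3 here are far more alike than that, so the simulation does not bear on the error rate of these calls.

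Of the probe sets, 13513 have 1 gene, 503 several and 8730 none in the annotation given, and 13436 matched RefSeq for TAIR10.1, used for names only. Where a gene has more than 1 probe set, the brightest on average stands for it. The members, the 28 gene lists and the tests were chosen with earlier results of these data known. Patterns of 2 lists that caught unrelated symbols were narrowed after the values were seen, and no removed gene had been called. The lists match symbols and synonyms, so they still hold genes that only share a symbol with the gene meant. Among these are CCR2 (AT1G80820) of the clock list and FRO1 (AT5G67590) of the iron list. Another is CHI (AT2G43570), which counts for both flavonoids and defence. None of them was called in the pooled comparison. Named genes are the 14 largest shared differences each way that held and did not overlap, up to 4 called members of each list, the 6 pooled calls of smallest adjusted p that part between the replicates, and the 4 largest each way at both times. The rule's genes that differ between VND6 and SND1 gave none with a name. Others are marked as chosen after their values were seen. Same-numbered arrays of SND1 and wt cells at 0 h deviated together (correlations of 0.486, 0.304 and 0.399 across probe sets), and those of VND6 and SND1 cells likewise (0.398, 0.245 and 0.287). Those of VND6 and wt cells did not in every pair (0.147, 0.023 and 0.186). SND1 replicate 3 also deviated with wt replicate 2 (0.338), while SND1 replicate 1 went against wt replicates 2 and 3 (-0.433 and -0.413). The values set replicate 1 apart and do not show that the numbers 2 and 3 pair arrays. Alternatives were another normalization, filter, pseudocount, trend, sample set and block, and leaving out each array.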

Additional observations from a re-analysis of the deposited data

Results flagged for a closer look

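Both probe sets that differed between VND6 and SND1 cells at 0 h have no gene name in the annotation used, and the difference was tested in limma. The probe set 259723_at read 1082, 1172 and 958 in VND6 cells and 156, 170 and 196 in SND1 cells, a difference of 2.59 on the log2 scale, with 174, 239 and 257 in wt cells, so SND1 cells lay near wt. The probe set 257714_at read 227, 164 and 164 in VND6 cells and 502, 598 and 447 in SND1 cells, a difference of -1.47, with 243, 223 and 179 in wt cells, so VND6 cells lay near wt. Both differences had the same sign in replicate 1 as in replicates 2 and 3.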

How the results depend on the processing

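The counts depend on how replicate 1 is treated. Of the alternatives run for the named genes, 1090 gave the same result, 201 lost the call, 41 moved in size with replicate 1 only, and 0 turned the sign. The 1090 include 23 with replicate 1 only, where no call could be made. Most of these genes were chosen by their calls on the same arrays, so a kept sign is largely built in. Of all 1131 pooled calls, 9 had the opposite sign in replicate 1. Fitting only the 9 arrays at 0 h gave 456 pooled, 494 VND6 and 42 SND1 calls, with 41 shared and 41 held. With the replicate number as a block there were 583 SND1 and 417 shared calls, and with a block of replicate 1 against 2 and 3 there were 1962 pooled, 2262 VND6, 730 SND1, 543 shared and 411 held calls, and 24 between VND6 and SND1. The block changed no call of a named gene. With replicates 2 and 3 only, the counts were 6783 pooled, 7541 VND6, 4510 SND1, 3461 shared, 672 held, 4455 between VND6 and SND1, and 9440 at 12 h. With them averaged they were 0, 0, 0, 0, 0 and 0 in the same order, and 599 at 12 h, with smallest limma adjusted p of 0.0746 pooled, 0.0999 in VND6 cells and 0.18 in SND1 cells. Leaving out 1 array gave 443 to 2258 pooled, 540 to 2939 VND6, 102 to 846 SND1, 83 to 726 shared and 82 to 189 held calls, 1 to 375 between VND6 and SND1, and 2209 to 5256 at 12 h. Leaving out wt replicate 1 or VND6 replicate 1 at 0 h raised the pooled count (2258 and 1432), as did VND6 replicate 1 at 12 h for that time; the cause was not tested. The count held could not be made without an array of replicate 1. Quantile normalization, other filters and pseudocounts and no intensity trend kept each count over both directions within 1.5 times the value reported. The excess of higher calls was smaller with quantile normalization. It gave 672 higher and 399 lower pooled calls (798 and 333 reported), and 139 higher and 60 lower held calls (185 and 58). With no filter, the lower counts moved by more, to 41 shared (67 reported), 47 SND1 (73) and 38 held (58). Signals under the pseudocount, as in many wt values of the higher set, limit those folds to a lower size.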
